A study of Drosophila melanogaster with 4 samples.

Results

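H3K4me1 deserts are long stretches of the fly genome in which no region of enriched histone H3 lysine 4 monomethylation was called. On the chromosome arms X, 2L, 3L and 3R, the regions of the 3 deposited lists were merged into 1 union, and every gap of 30 kb or more between neighbouring union regions was kept as a desert, outside the 2 Mb at the centromeric end of each arm. The deserts were thus chosen by the positions of the called regions themselves, and their number, length and spacing are descriptions. The rule gave 458 deserts among the 7200 gaps of the 4 arms. The union over all sequences of the series had 9803 gaps. The chromatin came from the nuclei of heads of *Drosophila melanogaster* of the strain Oregon-R (Oregon-R-modENCODE), genotype wild type, raised in population cages, labelled Mixed Adult and immunoprecipitated with the antibody ab8895, new lot 2. The study had 2 ChIP libraries and 2 input libraries, all of the same strain, stage and genotype, and no treatment. The 3 lists were those of ChIP replicate 1, of ChIP replicate 2, and of the replicate set, which is termed the combined list. Heads were pooled from many flies and hold neurons, glia, eye, fat and other cells, and the labels do not tell whether each replicate had its own fly population, so the spread between them may be technical.

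H3K4me1 is placed in flies mainly by the methyltransferase Trithorax-related and marks enhancers, both active and primed, and the sequence beside active promoters. Long stretches without it are known from gene-poor sequence and from the repressed chromatin that holds silent, tissue-specific genes of *Drosophila*. A desert in a region list is a stretch without a call. Absence of the mark, sequence where reads cannot be placed uniquely and enrichment below the authors' threshold cannot be told apart from these lists, and the sequencing depth was unknown. Coordinates are those of FlyBase release 5, and no gene was assigned to a desert, because the available gene table uses release 6.

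In the union, deserts took up nearly as much of these arms as the marked regions did. They held 26.2 Mb, or 29.1% of the 89.9 Mb examined, while union regions covered 33.3% and the shorter gaps held the remaining 37.4%. In each replicate alone, gaps of 30 kb or more took up more than the marked regions. The shares were 46.6% against 24.2% in replicate 1 and 46.0% against 20.2% in replicate 2. Deserts of the union were 6.36% of its gaps, a share that the rule itself sets, and held 43.6% of its unmarked bases. The median desert was 46.5 kb long, with quartiles of 37.1 and 65.4 kb and a range from 30.0 to 256 kb. The shortest deserts measured 30040 bp (X), 30113 bp (3L) and 30309 bp (3R), and the longest gaps left out were 29985 bp (3L), 29975 bp (X) and 29945 bp (3L), so no break in the lengths lay at the threshold.

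In the union, arm 2L was the richest in deserts and X the poorest. Arm 2L had 126 deserts, or 6.00 per Mb, which held 36.6% of its examined length. Arm 3R had 133 deserts, or 5.13 per Mb, over 28.6% of its length. Arm 3L had 112, or 4.97 per Mb, over 28.7%. X had 87, or 4.26 per Mb, over 22.5%. The arms differed less in typical length than in number, with medians of 49.3 kb for 2L, 48.0 kb for X, 46.0 kb for 3R and 44.3 kb for 3L. In the union they differed most in the far tail. Of the 40 deserts of 100 kb or more, 15 were on 3R, 12 on 2L, 11 on 3L and 2 on X. In replicate 1 alone, gaps of that length numbered 26 on X, against 27 to 36 on the other arms. In replicate 2 alone they numbered 26 on X, 27 on 2L, 18 on 3L and 25 on 3R. The place of X by number per Mb and by share of length depended on the list too. In replicate 1 alone X was again the poorest, with 5.97 gaps of 30 kb or more per Mb over 43.7% of its length, against 6.25 to 7.04 per Mb over 44.4% to 53.1% on the other arms. In replicate 2 alone X was the richest arm on both measures, with 7.59 per Mb over 52.9%, against 7.04 per Mb over 49.6% on 2L, 6.45 per Mb over 42.1% on 3R and 6.25 per Mb over 40.9% on 3L.

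Long gaps were far more frequent than independent placement of the same number of regions would give, and the excess grew with length. If the regions of an arm fell at random on its unmarked bases, gaps of 30 kb or more would number 206 over the 4 arms, against 458 observed, a ratio of 2.23. X had a ratio of 4.68, 3L of 2.17, 3R of 2.02 and 2L of 1.80. This order of the arms was not stable: in replicate 1 alone X was again the highest, at 1.58 against 1.10 to 1.25, but in replicate 2 alone it was the lowest, at 1.09 against 1.20 on 2L, 1.40 on 3L and 1.44 on 3R. Among regions found in both replicates X was the lowest as well, at 0.759 against 0.770 to 0.926. At 20 kb the observed number was close to the random one, with 790 gaps against 655, except on X, with 161 against 87.1. At 50 kb there were 194 against 21.3, at 75 kb 87 against 1.33, and at 100 kb 40 against 0.0867. These expected numbers come from a formula and no test was made.

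**Figure D1:**
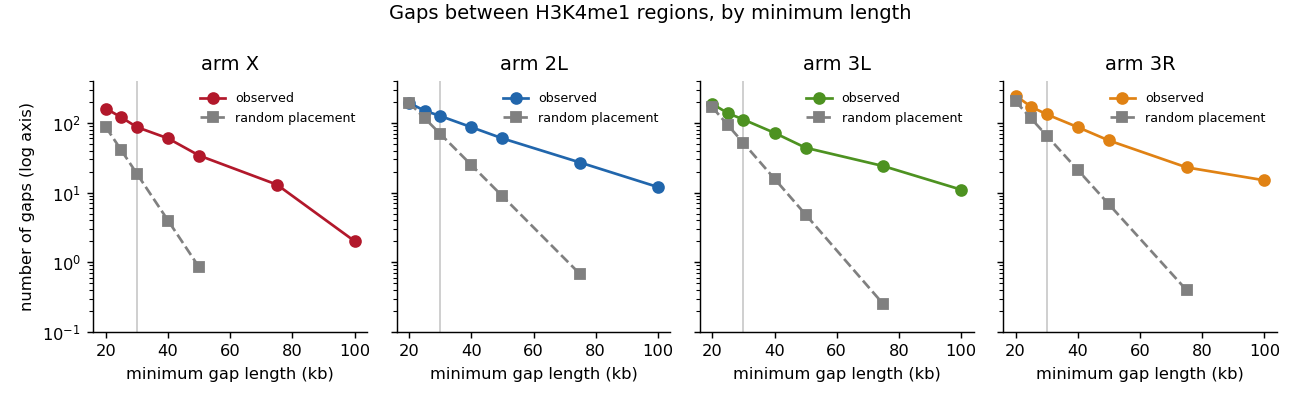
Number of gaps (log axis) of at least the length on the x axis (kb) on each arm, observed (circles) and expected if the same number of regions were placed at random on the unmarked bases (squares, shown down to 0.1), with the 30 kb threshold as a grey line. The 2 curves lie close at 20 kb on 2L, 3L and 3R and part with length, to 40 observed gaps of 100 kb or more over the 4 arms.

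The size of the excess at 30 kb depended on what was counted as a separate region. When union regions up to 1000 bp apart were joined, the same 458 deserts stood against 397 expected, a ratio of 1.15. Replicate 1 alone gave 1.26 and replicate 2 alone 1.27. The ratio fell below 1 when only union regions found in both replicates were kept (0.835) and when only the higher-scoring 50% of each list was kept (0.865). The mean gap then grew from 8.30 kb to 18.9 and 17.2 kb, and a gap of 30 kb was no longer rare. Why the ratio fell below 1 was not tested. At 100 kb, observed numbers exceeded the random ones in each of these settings: 40 against 1.35 after joining across 1000 bp, 119 against 1.60 in replicate 1, 96 against 1.65 in replicate 2, 146 against 19.0 for regions found in both replicates, and 137 against 24.1 for the higher-scoring 50%.

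The longest desert ran on 2L from 11541989 to 11798261, over 256 kb. By construction no list has a region inside a desert of the union. The gap that encloses this desert measured 275 kb for replicate 1, 258 kb for replicate 2 and 270 kb for the combined list. The next was on 2L from 4478039 to 4693475, over 215 kb, within gaps of 327 kb (replicate 1), 287 kb (replicate 2) and 226 kb (combined list). The third, on 2L from 12218847 to 12425808, measured 207 kb in the union, and 283 kb (replicate 1), 209 kb (replicate 2) and 217 kb (combined list). All of these are wider than the broadest marked union region of the 4 arms, which measured 49.0 kb. The fourth, on 2L from 16910716 to 17102680, was 192 kb long, and its enclosing gap was 228 kb in replicate 1 and 192 kb in replicate 2. The fifth was the longest of 3L, from 20535631 to 20712163, and the lists placed it almost identically: 176.5 kb in the union and in replicate 2, 177.1 kb in replicate 1 and 176.7 kb in the combined list.

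The other 5 of the 10 longest deserts lay between 150 and 161 kb. They were 2L from 14744186 to 14905555, 3R from 23994590 to 24147141, 3L from 15334855 to 15486927, 3R from 19213775 to 19364951, and 3L from 1999323 to 2148991. The last was 149.8 kb long in replicate 1 and 153.0 kb in replicate 2. The other 4 opened into longer gaps in at least 1 replicate, up to 380 kb around the 2L desert in replicate 1 and 338 kb around the first 3R desert in replicate 2. Of the 10 longest, 5 were on 2L, 3 on 3L and 2 on 3R. The longest on X, from 6268300 to 6415856, ranked 11th at 148 kb, with enclosing gaps of 150 kb in replicate 1 and 158 kb in replicate 2.

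**Figure D2:**
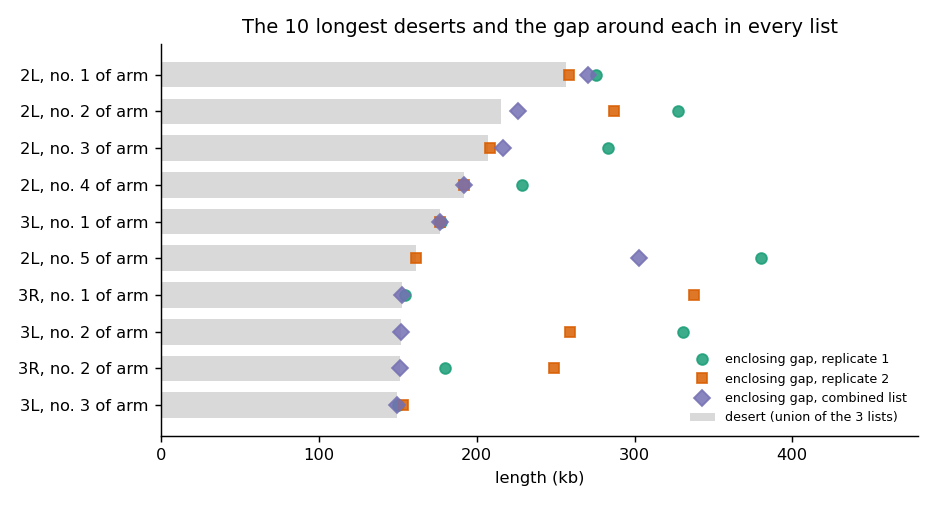
Length (kb) of the 10 longest deserts (grey bars, union of the 3 lists) and of the gap that encloses each in replicate 1 (circles), replicate 2 (squares) and the combined list (diamonds), labelled by arm and rank within the arm. No enclosing gap can be shorter than its bar; the first desert of 3L and the third of 3L have all symbols near the end of the bar, whereas the fifth of 2L is 161 kb in replicate 2 and 380 kb in replicate 1.

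Each replicate alone had more and longer deserts than the union, and most desert bases of 1 replicate lay in a desert of the other. The greater total length follows from the merge, because every desert of the union lies inside a gap of each list. Replicate 1 had 580 gaps of 30 kb or more over 41.9 Mb, with a median of 51.8 kb, and replicate 2 had 611 over 41.3 Mb, with a median of 51.0 kb. Their deserts shared 34.7 Mb, which was 83.0% of the desert bases of replicate 1 and 84.0% of those of replicate 2. Deserts took 46.6% and 46.0% of the examined length in the replicates, so these shares stand against about that much by position alone. The arm that departed most was X, where the shared bases were 88.4% of the replicate 1 deserts but 72.9% of the replicate 2 deserts. X was also the arm with the greater desert length in replicate 2, 10.8 Mb against 8.92 Mb, while on 2L, 3L and 3R replicate 1 had more.

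The position of a desert's edge was less settled than the desert itself. The 458 deserts have 916 edges. The combined list reached the union edge exactly at 603 of them (65.8%), replicate 2 at 230 (25.1%) and replicate 1 at 88 (9.61%). For gaps of 10 to 30 kb these shares were 66.5%, 23.2% and 10.8%, so they were not particular to deserts. The nearest region of replicate 1 began a median of 3.02 kb beyond the edge and that of replicate 2 a median of 1.52 kb beyond it, but the upper quartiles of these distances were 32.6 and 22.1 kb. Both replicates had a region within 5 kb of the edge at 39.7% of desert edges, against 47.5% of the edges of gaps of 10 to 30 kb and 52.0% of those of gaps of 5 to 10 kb. The median enclosing gap was 82.4 kb for replicate 1, 73.4 kb for replicate 2 and 49.9 kb for the combined list. On X the enclosing gap of replicate 2 was a median of 1.86 times the desert, against 1.15 to 1.33 times on the other arms.

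A subset of 56 deserts, 12.2% of all, had on both sides a union region that was called in both replicates, against 17.6% of the gaps of 10 to 30 kb and 29.1% of all gaps. Their median length was 42.2 kb in the union, 42.7 kb in replicate 1 and 44.0 kb in replicate 2, and in 54 of them neither replicate differed from the union by more than 5 kb. This closeness largely follows from the selection, because each replicate then has a call inside the union region on either side. They comprised 20 deserts on 3L (17.9% of its deserts), 18 on 3R (13.5%), 15 on 2L (11.9%) and 3 on X (3.45%). Of all union regions of X, 36.7% were called in both replicates, against 52.5% to 55.1% on the other arms. The longest were the 3L deserts from 20535631 to 20712163 and from 1999323 to 2148991 described above, then 3L from 12861158 to 13005242 (144.1 kb in the union, 144.3 kb in replicate 1 and 144.6 kb in replicate 2) and 3R from 23119914 to 23262798 (142.9, 142.9 and 143.4 kb). At the other extreme, 205 deserts or 44.8% had no edge region called in both replicates, against 40.3% of the gaps of 10 to 30 kb and 30.8% of all gaps.

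Deserts occurred along the whole examined length of every arm, but the share they took varied widely. Each of the 88 windows of 1 Mb held the centre of at least 1 desert. The number per window had a mean of 5.08 and a variance of 4.69, and the ratio of variance to mean was 0.616 on X, 0.650 on 2L, 1.10 on 3L and 1.09 on 3R, where independent scatter of points gives about 1. That value holds for points, whereas deserts cannot overlap and their own length limits how many can lie in 1 Mb. The ratios therefore do not tell whether deserts were bunched by number at this scale. By length they were uneven: deserts took between 3.36% and 71.6% of a window, and the 17 windows with the most held 34.2% of all desert bases. The window with the highest share was 2L from 17000001 to 18000000, with 10 deserts over 71.6% of its length and 7.01% covered in replicate 1 and 8.64% in replicate 2. Next were 2L from 15000001 to 16000000, with 66.8% in deserts, and 2L from 14000001 to 15000000, with 61.9%, which was less covered in each replicate (6.83% and 6.04%) than the first. The window with the least was 3R from 5000001 to 6000000, with 1 desert over 3.36% of its length, where replicate 1 regions covered 43.1% and replicate 2 regions 39.6%.

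**Figure D3:**
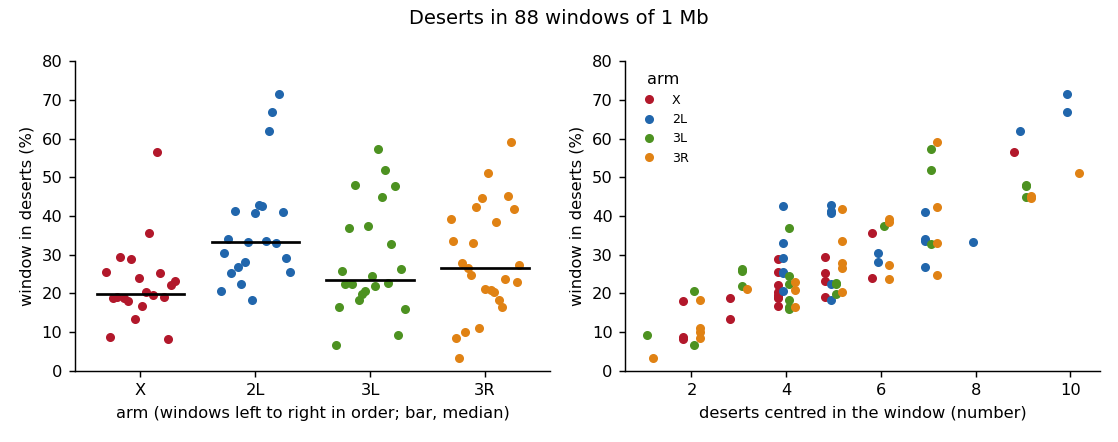
Share of each 1 Mb window that lay in deserts (%), by arm with windows in order along the arm and the median as a bar (left panel), and against the number of deserts centred in the window (right panel). The 3 highest points are windows of 2L, between 61.9% and 71.6%, and the lowest, at 3.36%, is on 3R.

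Deserts followed each other more often than the same gaps in random order would. A pair of deserts separated by 1 union region occurred 94 times, against 30.1 expected if the gaps of each arm were shuffled, a ratio of 3.13. The ratio was 4.08 on X (16 pairs), 3.15 on 3R (28), 3.02 on 2L (31) and 2.73 on 3L (19). The excess was smaller within each replicate, 2.05 in replicate 1 and 2.15 in replicate 2, and was above 1 there on each of the 4 arms. It fell to 1.41 when only union regions found in both replicates were kept. Beyond the region at a desert's edge, the next gap had a median of 7.09 kb, against 2.65 kb for the neighbours of all gaps, and was itself a desert in 20.5% of cases, against 6.36%. The median distance from 1 desert to the next was 66.2 kb, and the longest stretch without a desert was 1128 kb, on 3R.

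In all, 164 deserts (35.8%) stood in 70 runs of 2 or more, divided by 1 union region each, and held 37.7% of the desert bases. The 3 longest runs were all on 2L. The longest, from 15771319 to 16169014, strung 5 deserts of 56.2 to 105 kb over 398 kb, with 9.58 kb of marked sequence between them in 4 regions. Of these, the one from 15909265 to 15914550 was in all 3 lists. The one from 15827488 to 15829300 was in replicate 2 and the combined list, the one from 16096077 to 16097472 in replicate 2 alone, and the one from 15990418 to 15991498 in the combined list alone. Replicate 1 thus saw the run as gaps of 138 and 255 kb. The second, from 14632346 to 14993865, held 4 deserts over 362 kb with 4.67 kb of marked sequence between them. In replicate 1 it lay within a single gap of 380 kb, and its dividing regions were 2 calls of replicate 2 and 1 of the combined list. The third, from 16910716 to 17249485, held 4 deserts over 339 kb.

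Regions with a desert on both sides were few, narrow and seldom found in both replicates. There were 94 such islands, with a median width of 1.67 kb and none wider than 7.38 kb. The rule bears on their support and width. A call of 1 list alone in a long gap of the others becomes an island or edge region. Merging calls of several lists can only widen a region. How much of the differences this accounts for was not tested. Of them 17 or 18.1% (exact 95% binomial interval 10.9% to 27.4%) were called in both replicates, against 49.1% of the 7204 union regions of the 4 arms, and 58 or 61.7% were in 1 list, against 26.8%. The single-list islands were 37 from the combined list, 19 from replicate 2 and 2 from replicate 1. Over all union regions, the 1931 in 1 list were 1582, 335 and 14 in the same order of lists. The 5 widest islands were each in all 3 lists. They were X from 16039581 to 16046964 (7.38 kb), 3L from 21669567 to 21676103 (6.54 kb), 2L from 15909265 to 15914550 (5.29 kb), 3L from 6254441 to 6258864 (4.42 kb) and 2L from 11356206 to 11360543 (4.34 kb). The X island was a strong call, with authors' scores of 1.16 (replicate 1), 2.12 (replicate 2) and 1.28 (combined list). The regions of the 4 arms with no desert beside them had median scores of 0.75, 1.11 and 0.61 in these lists. The 2L island of 5.29 kb scored lower than those medians in each list, at 0.55, 0.70 and 0.51.

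The same held in weaker form for all 822 regions at a desert's edge. Their median width was 1.98 kb, with quartiles of 1.47 and 3.35 kb, against 2.85 kb for the 6382 regions with no desert beside them, with quartiles of 1.79 and 5.29 kb. The edge regions were the narrower ones on each arm, with medians of 1.94 to 2.12 kb against 2.77 to 2.99 kb. Wider than 10 kb were 19 edge regions or 2.31%, against 7.79% of all union regions. Called in both replicates were 292 or 35.5% (32.2% to 38.9%), against 49.1% of all union regions, and in 1 list 335 or 40.8%, against 26.8%. Those in 1 list were 252 regions of the combined list, 81 of replicate 2 and 2 of replicate 1. Over all union regions these numbers were 1582, 335 and 14, so the lists stood in the same order. On X, 22.2% of edge regions were found in both replicates against 36.7% of its union regions, and on 2L, 3L and 3R 38.5% to 39.0% against 52.5% to 55.1%. Regions are not independent replicates, and the intervals cover counting error only. The rule bears on the support and width of edge regions as it does on those of islands.

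The lower support at the edges was also seen when each replicate's own deserts were checked in the other. The same selection acts here, because an isolated call of that replicate alone also becomes an edge region. Of the regions that bound a desert of replicate 1, 68.6% were found in both replicates, against 78.0% of its other regions. For replicate 2 the shares were 66.1% against 85.0%. Edge regions of the replicate lists alone were narrower too, with a median of 2.28 against 3.00 kb in replicate 1 and 1.98 against 2.30 kb in replicate 2. The difference in support was not seen among the higher-scoring 50% of each list, where 78.2% of edge regions and 75.2% of other regions were found in both replicates. That comparison mixes arms. X, whose union regions had the lowest support, held 1393 of the 3877 gaps of this setting but 103 of its 585 deserts. It therefore does not tell whether the difference was absent within an arm.

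**Figure D4:**
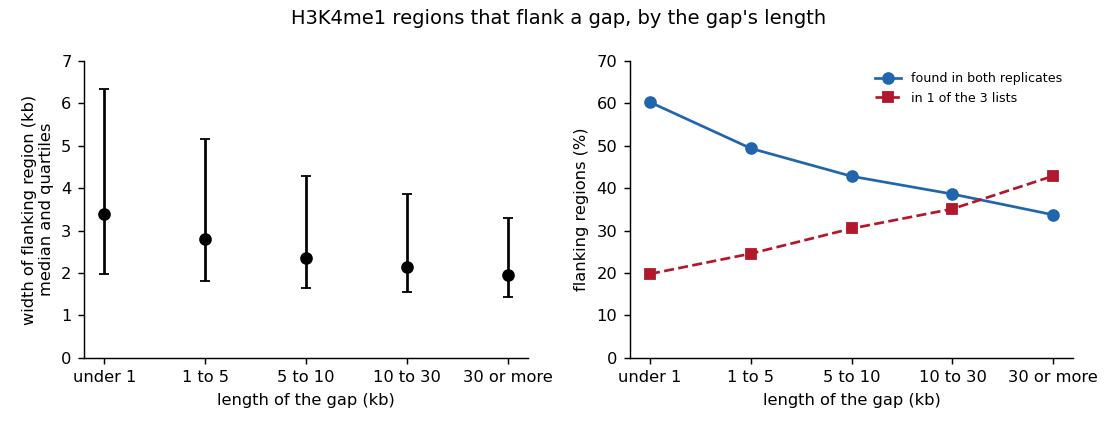
Width of the union regions that flank a gap (kb, median and quartiles, left panel) and the share of them found in both replicates or in 1 of the 3 lists (%, right panel), by the length of the gap in kb and counted per edge. From gaps under 1 kb to gaps of 30 kb or more, the median width goes from 3.39 to 1.95 kb and the share found in both replicates from 60.3% to 33.7%.

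This was a graded change with gap length rather than a step at 30 kb. The median width of flanking regions, counted per edge, was 3.39 kb for gaps under 1 kb, 2.80 kb for 1 to 5 kb, 2.35 kb for 5 to 10 kb, 2.14 kb for 10 to 30 kb and 1.95 kb for deserts. The share found in both replicates went from 60.3% through 49.4%, 42.8% and 38.6% to 33.7%. Within deserts the median edge width was 2.01 kb in the 153 shortest deserts (up to 40.0 kb) and 1.92 kb in the 153 longest (from 56.7 kb). The share of edges found in both replicates was 37.9% in the shortest, 30.9% in the 152 of middle length and 32.4% in the longest. Across the 458 deserts, length and mean edge width had a Spearman rho of -0.031, and the widths of the left and right edge regions a rho of 0.036. Both are descriptions across deserts, some of which share an edge region.

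The authors' scores of edge regions were lower as well, within each list. In replicate 1 the median score was 0.68 for 471 regions at desert edges and 0.75 for 5232 others. In replicate 2 it was 0.99 for 525 against 1.11 for 5506, and in the combined list 0.52 for 756 against 0.61 for 6346. The edge median was the lower one in 12 of 12 combinations of list and arm, although the distributions overlapped: their quartiles were 0.56 to 0.82 at edges and 0.62 to 0.90 elsewhere in replicate 1. These combinations are not independent, because the combined list was called on both replicates and the edges come from 1 union. At edges, 17.6% of replicate 1 regions, 19.0% of replicate 2 regions and 14.8% of combined-list regions scored in the upper quartile of their list on these arms. Taken arm by arm, the share was between 13.8% and 22.1%, except on X in replicate 2, where it was 29.2%. Score and width come from the same calls, so they are not separate observations.

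Sequence beside deserts was more sparsely marked than the arms as a whole. In the first 10 kb outward from an edge, union regions covered 42.5% of the bases, a value raised by the edge region that every such bin starts with. From 10 to 20 kb they covered 27.0%, from 30 to 40 kb 26.6% and from 90 to 100 kb 31.8%, against 33.3% over the 4 arms. In replicate 1 the share was 18.7% at 10 to 20 kb and 23.1% at 90 to 100 kb, against 24.2% over the arms, and in replicate 2 it was 16.5% and 20.0%, against 20.2%. Other deserts accounted for part of these bins: 28.8% of the bases at 10 to 20 kb and 37.2% at 30 to 40 kb lay in another desert, against 29.1% of the arms. With desert bases left out, union coverage was 37.9% at 10 to 20 kb, 42.4% at 30 to 40 kb and 48.9% at 90 to 100 kb, against 46.9% over the arms. The lower coverage at 10 to 20 kb was present on each arm, from 23.7% against 29.0% on 2L to 30.6% against 39.4% on X.

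**Figure D5:**
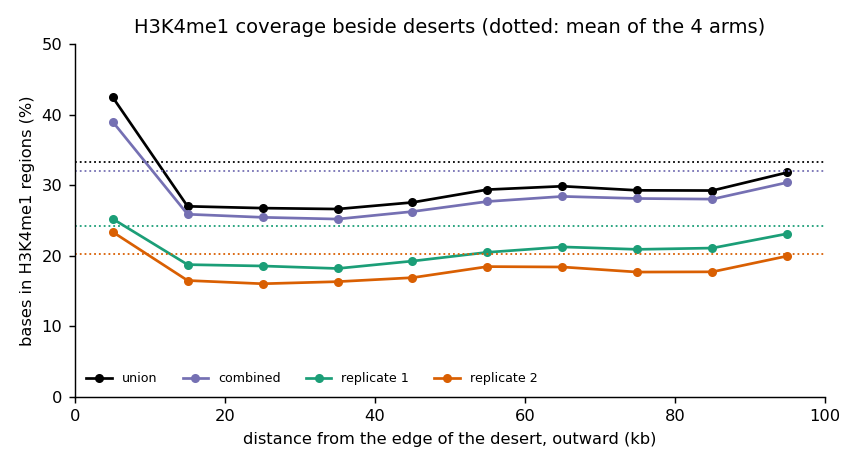
Share of bases in H3K4me1 regions (%) in bins of 10 kb outward from the edges of the 458 deserts (x axis, distance in kb), for the union, the combined list and each replicate, with the mean of the 4 arms as dotted lines. All 4 curves lie below their dotted line from 10 kb to 100 kb, with the union between 26.6% and 31.8% there.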

How the data were processed

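The authors deposited enriched regions for each ChIP replicate, called with the input of the same number per the labels, and for the replicate set. The submitters' processing notes name Bowtie 0.12.7, a read aligner. The sources used here do not give the caller or its threshold. Per the file headers, coordinates are 1-based and follow FlyBase release 5. The score of each region was deposited by the authors, has no stated scale and was used only within a list. Input files were not used here, and 2R was not analysed here.

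Python 3.11.15 with numpy 2.4.6 merged the lists (overlapping or touching regions), took the gaps and computed closed-form expectations: n gaps sharing F unmarked bases, and k deserts among n shuffled gaps. The functions were tested on simulated data. Support means an overlap of at least 1 bp. Shares have exact Clopper-Pearson 95% intervals (scipy 1.17.1). No test was made, since the rule uses the positions and there is 1 condition. Named are the 10 longest deserts, the longest of each arm, the 3 nearest the threshold on each side, the 3 longest runs and the 5 widest islands. The windows named and the deserts with both edges supported were chosen after their values were seen. The members and lists were chosen with earlier results of these data known. Alternatives covered the lists, scores, threshold, centromeric part, X, local density, joining and support in both replicates.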

Additional observations from a re-analysis of the deposited data

How the results depend on the processing

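Region lists without read totals limit every value here: depth, mappability and the authors' threshold bear on where a gap ends. The combined list was called on both replicates, so leaving 1 replicate out removes it only in part. Of 137 alternative values, 67 moved by less than the spread between the replicates (1.5 times for counts), 68 moved by more and 2 reversed direction. Some of the 67 were fixed in advance, because joining regions across up to 1000 bp cannot change the number or length of gaps of 30 kb or more. The spread is that of 2 values, each from 1 replicate list alone. Settings with joined regions, or with only regions of both replicates, were chosen after seeing the data. No paired analysis was possible because the results come from no test and the inputs gave no list used here.

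Against 458 deserts there were 790 at a threshold of 20 kb and 194 at 50 kb. The ratio to the expected number, 2.23, turned below 1 for the higher-scoring 50% of each list (0.865) and for regions found in both replicates (0.835). It was 1.26 in replicate 1 alone, 1.27 in replicate 2 alone, 2.11 in the combined list and 1.56 for the union of the replicates. Thresholds of 20, 25, 40 and 50 kb gave 1.21, 1.58, 4.65 and 9.09. It was 2.03 with no centromeric part left out, 2.24 with 3 Mb left out, 1.98 without the X, 1.88 with the density of each 1 Mb window, 1.42 after joining across 500 bp and 1.15 across 1000 bp. Leaving out 1 replicate gave 2.09 to 2.24.

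The total length, 26.2 Mb, was 28.7 Mb in the combined list, 34.0 Mb in the union of the replicates, 41.9 and 41.3 Mb in replicates 1 and 2 alone, 46.7 Mb for the higher-scoring 50% and 48.9 Mb for regions of both replicates. It was 34.2, 29.5, 20.9 and 15.9 Mb at thresholds of 20, 25, 40 and 50 kb. It was 30.6 Mb with no centromeric part left out, 24.98 Mb with 3 Mb left out and 21.6 Mb without the X. Leaving out 1 replicate gave 26.2 to 28.6 Mb.

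The median length, 46.5 kb, was 49.8 kb in the union of the replicates, 51.8 and 51.0 kb in replicates 1 and 2 alone, 57.3 kb for the higher-scoring 50%, 57.9 kb for regions of both replicates and 48.0 kb with no centromeric part left out. At the 4 thresholds it was 33.2, 41.5, 56.6 and 70.9 kb. Neighbouring pairs, 94, numbered 150 for the higher-scoring 50%, 145 for regions of both replicates, 194 at 20 kb, 54 at 40 kb and 26 at 50 kb. They stood at 1.41 to 4.71 times the expected number over the 17 alternatives.

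The edge regions' median width minus that of others, -0.87 kb, was -0.32 kb in replicate 2 alone, -0.39 kb for the higher-scoring 50%, -1.23 kb after joining across 500 bp and -1.51 kb across 1000 bp. In the combined list's score the difference, -0.09, was -0.062 with the deserts of replicate 2 alone, -0.043 for the higher-scoring 50%, -0.066 without the X, -0.062 after joining across 1000 bp and -0.063 for regions of both replicates. The share of edge regions found in both replicates, 35.5%, was 40.2% in the combined list, 47.5% in the union of the replicates, 68.6% and 66.1% in replicates 1 and 2 alone, 78.2% for the higher-scoring 50%, 37.7% at 20 kb, 33.5% at 40 kb, 38.7% without the X, 38.6% after joining across 500 bp and 40.2% across 1000 bp. It is 100% by construction for regions of both replicates. Leaving out 1 replicate gave 35.7% to 40.1%. The cause of these moves was not tested unless stated.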

Other observations

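Gaps of 30 kb or more that touched the centromeric 2 Mb of an arm numbered 49 and are not among the deserts: 16 on 2L, 13 each on X and 3L, and 7 on 3R. The ends of the arms are not gaps between regions. At the tip of 3L no region was called in the first 52.5 kb, against 0.074 kb on X and 5.01 kb on 2L, while on 3R, whose tip is the far end of the sequence, the last region ended 5.35 kb before it.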
